A study of Homo sapiens with 18 samples.

Results

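Kinesins are motor proteins that use ATP to move along microtubules. One branch of the family works on the mitotic spindle, where its members separate the poles, align chromosomes, shorten microtubules and complete cell division. The other large branch carries vesicles, organelles and ciliary cargo in cells that are not dividing. In dividing cells the mitotic kinesins are made mainly in G2 and mitosis, so their transcripts follow the share of cycling cells, whereas most transport kinesins do not.

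The kinesin genes were taken as every gene with the symbol KIF followed by a number, together with KIFC1, KIFC2 and KIFC3. This gave 41 of the 19775 genes measured, read by 85 of the 41097 probe sets that carry 1 gene. Each gene was represented by its brightest probe set, and 26 of the 41 genes had more than 1. By textbook roles, 13 genes were placed with the mitotic kinesins, 15 with the transport kinesins and 13 with the others, which act in cilia or on microtubule dynamics or are less defined. CENPE, a further mitotic kinesin, does not carry the KIF symbol and was counted with the partners.

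The cells were 3 established human hepatocellular carcinoma lines, Hep3B, SNU449 and PLC (PLC/PRF/5), grown in RPMI and transfected with a lipid reagent. Each line was given an siRNA against ATAD2, which encodes a bromodomain ATPase of chromatin, or a control siRNA, with 3 biological replicates per group by the labels and 18 arrays in all. The labels call the treated cells knockouts, but the treatment they describe is siRNA. Neither the time after transfection nor the siRNA sequence is given in the sources used here. All values are log2 signals after quantile normalization over the 18 arrays, and every change is ATAD2 siRNA minus control on that scale.

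ATAD2 changed by -3.80 in Hep3B, -2.39 in SNU449 and -2.62 in PLC, and it was lower on all 9 ATAD2 siRNA arrays than on any control array of its line. RB1, which Hep3B cells are known to lack, averaged 9.25 and 9.47 on the arrays labelled Hep3B (ATAD2 siRNA and control), but 4.58 and 4.44 on those labelled SNU449. ALB, the albumin gene of differentiated hepatocytes, averaged 3.08 and 3.03 under the Hep3B label and 13.75 and 13.76 under the SNU449 label. Of 7 hepatocyte markers measured, AFP, APOA1, APOB, TTR and SERPINA1 were also higher under the SNU449 label, whereas FGB, a fibrinogen chain, was lower there (6.95 and 6.88, against 11.86 and 11.47 under the Hep3B label). Of 6 mesenchymal markers, VIM, AXL, ZEB1, SPARC and COL1A2 were higher under the Hep3B label than under the SNU449 label, and FN1 was lower. RB1 and most of the hepatocyte markers run against the usual description of both lines. Whether the 2 labels were exchanged was not tested, so that Hep3B and SNU449 stand below for the labels on the arrays. Of the leukocyte markers, group means were 2.77 to 3.66 for PTPRC, 4.14 to 5.24 for CD14 and 5.79 to 6.28 for CD3E, and of the endothelial ones 2.76 to 3.40 for CDH5, 3.06 to 4.07 for KDR and 6.12 to 6.89 for PECAM1. In Hep3B CD14 rose by 0.49 and PECAM1 fell by 0.25 with ATAD2 siRNA (adjusted p = 0.026 and 0.0278), and their part in the kinesin results was not tested. The 5′ minus 3′ difference of the ACTB and GAPDH control probe sets, a reading of RNA integrity, was -1.15 and -1.09 on replicates 1 and 3 of PLC with ATAD2 siRNA, against -0.59 to -0.44 on the PLC controls. Replicate 2 of Hep3B with ATAD2 siRNA had -0.42, against -0.79 and -0.71 on the other replicates of its group and -0.78 to -0.65 on the Hep3B controls.

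Several mitotic kinesins fell after ATAD2 siRNA in Hep3B, while 2 transport kinesins and KIF21A rose and another transport kinesin fell. Of the 41 kinesin genes, 8 passed the threshold (limma, adjusted p under 0.05 over all genes), or 19.5%, beside 16.4% of all genes. The share was thus close to the background. Among the 30 kinesin genes that were not dim, 26.7% passed, beside 26.0% of all genes that were not dim. A gene was called dim where its highest group mean lay under 6.06, the median of all genes' mean signals. By class, of the 13 mitotic kinesins, 4 were lower and 0 higher, beside 7.74% and 8.68% of all genes. Of the 15 transport kinesins, 2 were higher and 1 lower, and of the 13 others 1 was higher. The median change was -0.17 over the mitotic, -0.094 over the transport and 0.025 over the other kinesins, beside -0.019 over all genes. No difference between the classes was tested. The split of the family's calls between higher and lower depended on the scaling. It was 3 higher and 5 lower here, 4 and 3 with the values as deposited, 5 and 3 with each array centred on its median, and 3 and 4 with quantile normalization within each line. The share of all genes called was not counted under those other scalings. The mitotic kinesins gave no higher call under any of these scalings, but their median shrank to -0.083 with the values as deposited and -0.048 with centred arrays, each with 3 lower. Relative to the median of all genes it was -0.15 here and -0.064 under both of those scalings, since centring only subtracts a constant from each array.

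**Figure D1:**
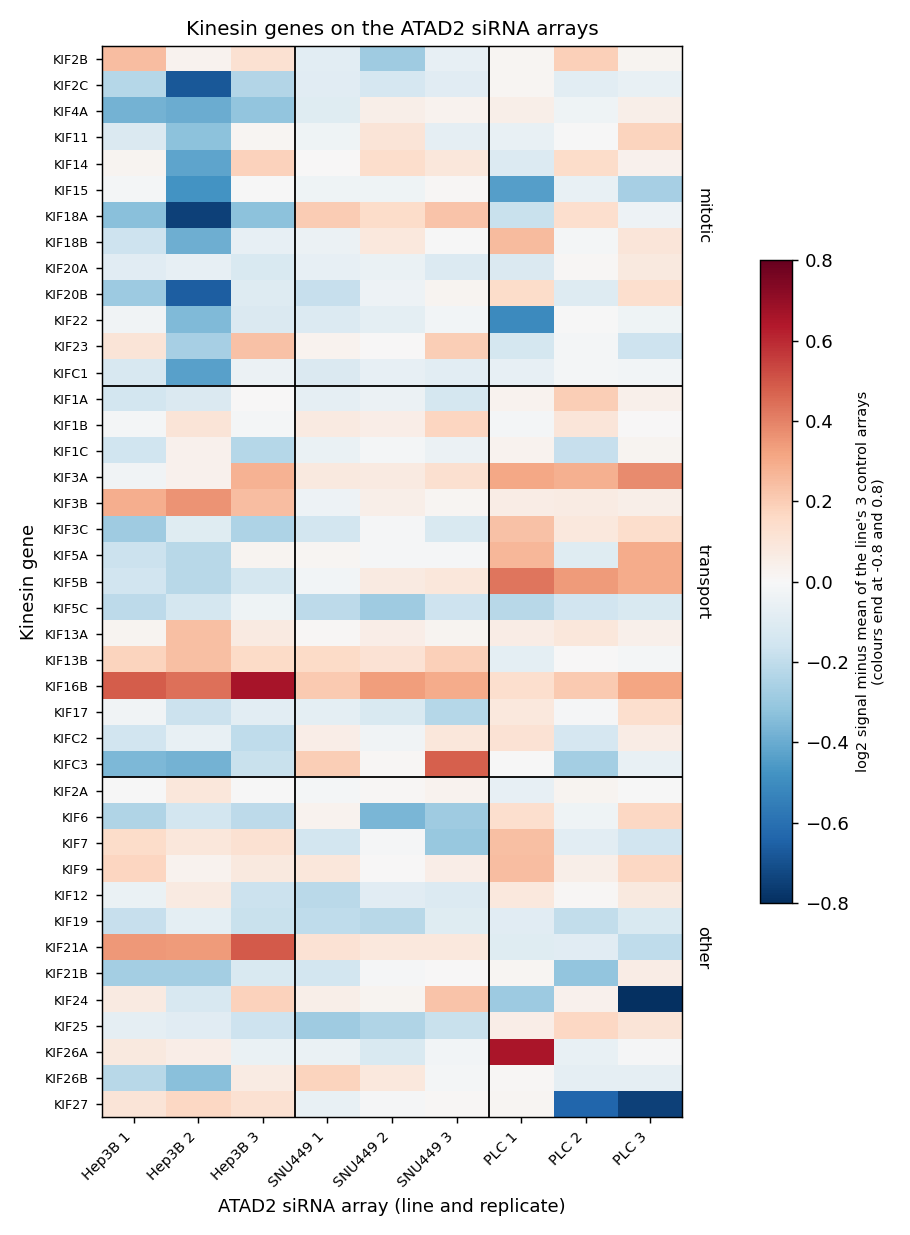
Each row is a kinesin gene, grouped as mitotic, transport or other, and each column an ATAD2 siRNA array; colour gives its log2 signal minus the mean of the 3 control arrays of the line, with the scale ending at -0.8 and 0.8. The blue rows among the mitotic kinesins lie mainly in the Hep3B columns, deepest on replicate 2, and KIF16B is red in all 9 columns.

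KIF18A, a kinesin-8 that dampens the movements of aligned chromosomes, showed the largest fall of the family in Hep3B. It gave 7.71, 7.30 and 7.72 on the ATAD2 siRNA arrays, against 8.07, 8.05 and 8.02 on the control arrays. All 3 knockdown values lay under all 3 control values, and replicate 2 was the lowest. The change was -0.47 ± 0.09 (SE), with a limma adjusted p of 0.002. KIF2C (MCAK), a kinesin-13 that shortens microtubules at centromeres, gave 9.82, 9.37 and 9.82 with ATAD2 siRNA, against 10.04, 10.07 and 10.04 in controls. Its groups did not overlap either, and the change was -0.38 ± 0.09 (adjusted p = 0.00558). A second KIF2C probe set changed by -0.34 and also passed. In a fit of Hep3B by itself KIF2C did not pass (adjusted p = 0.0634).

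KIF4A, a chromokinesin that binds PRC1 at the central spindle, changed evenly over the replicates. It gave 8.51, 8.48 and 8.57 with ATAD2 siRNA, against 8.97, 8.89 and 8.79 in controls, a change of -0.36 ± 0.06 (adjusted p = 0.00037). All 3 knockdown values lay under all 3 control values. KIF20B (MPP1), which acts in cytokinesis, gave 8.27, 7.90 and 8.46 with ATAD2 siRNA, against 8.53, 8.60 and 8.57 in controls. The groups did not overlap, but replicate 2 was far under the other knockdown replicates, and the change was -0.35 ± 0.11 (adjusted p = 0.0391). Without replicate 2 it was -0.20 and did not pass (adjusted p = 0.185), and with the values as deposited it was -0.26 (adjusted p = 0.0868).

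The other mitotic kinesins did not pass. KIF18B and KIFC1, a minus-end motor that clusters centrosomes, changed by -0.21 and -0.20 (adjusted p = 0.0912 and 0.115). KIF22, KIF15 and KIF11 (Eg5, which pushes the spindle poles apart) changed by -0.17, -0.16 and -0.14. KIF20A and KIF14 changed by -0.092 and -0.074. KIF23 (MKLP1), the motor of centralspindlin at the midzone, changed by 0.025, and KIF2B, which was dim on every array, by 0.13. In all, 11 of the 13 had a value under 0, beside 10919 of the 19775 genes. Counted in either direction, the groups did not overlap in 6 of the 13, beside 32.8% of all genes. In these 6 the knockdown arrays lay under all control arrays, and the share of all genes in that direction alone was not counted.

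The mitotic class differed among the Hep3B knockdown replicates. Its median against the mean of the controls was -0.12, -0.40 and -0.069 on replicates 1, 2 and 3 with ATAD2 siRNA, against 0.025, 0.022 and -0.017 on the controls. Replicate 2 stood apart from the other replicates of its group. Without it the median over the 13 genes was -0.089 with 3 lower, and without replicate 3 it was -0.24 with 6 lower. KIF18A, KIF2C and KIF4A passed whichever of the 18 arrays was left out. The same replicate was lowest for 20 G2/M genes listed beside the kinesins (-0.11, -0.45 and -0.13) and less so for 20 G1/S genes (-0.31, -0.41 and -0.27). Replicate 2 was also the array with the 5′ minus 3′ value that stood apart, and with the 5′ minus 3′ value as a covariate, an alternative chosen after the values were seen, the mitotic median was -0.18 with 4 lower. On bulk RNA, fewer cells in G2 and mitosis and less kinesin mRNA per cell cannot be told apart.

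**Figure D2:**
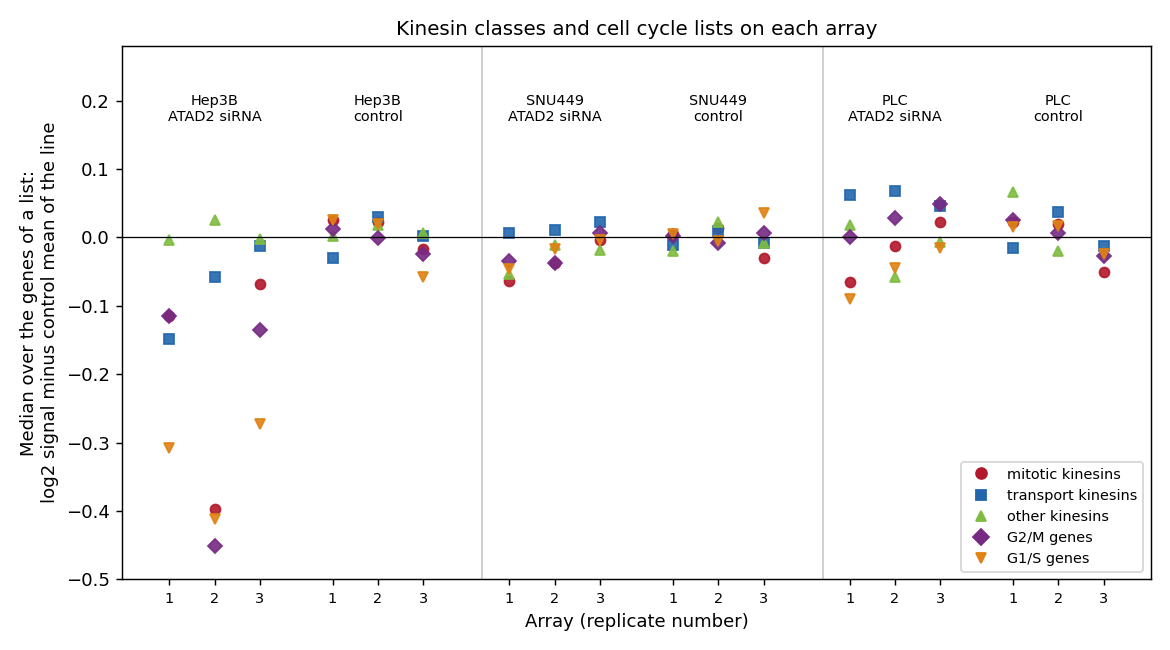
Each point is the median, over the genes of one list, of the log2 signal on one array minus the control mean of its line; arrays are ordered by line, with ATAD2 siRNA left of control. In Hep3B the G1/S genes lie between -0.41 and -0.27 on all 3 knockdown arrays, while the mitotic kinesins and G2/M genes lie near -0.40 and -0.45 on replicate 2 only.

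The gene lists around the family moved to different degrees in Hep3B. Of all genes, 7.74% were lower and 8.68% higher, and the share called among genes that were not dim is given above. Of the 20 G1/S genes, 16 were lower and 0 higher, with a median of -0.33. Of the 20 G2/M genes, 9 were lower and 1 higher, with a median of -0.24. The exception was MKI67, which encodes the Ki-67 antigen of cycling cells and rose by 0.43 ± 0.10 (adjusted p = 0.0081). It gave 9.02, 8.70 and 9.08 with ATAD2 siRNA, against 8.69, 8.46 and 8.37 in controls. Of 15 partners of mitotic kinesins, such as PRC1, RACGAP1, TPX2 and the Aurora kinases, 14 were measured, with a median of -0.075. Of these 1 passed, beside 16.4% of all genes. The partner that passed was KIFBP, which binds kinesin motor domains and blocks them, and it rose by 0.23 ± 0.06 (adjusted p = 0.0077).

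The promoter windows of the classes held cell cycle elements in different shares, given here as a description. Mitotic genes are commonly repressed in G1 through a cell cycle homology region (CHR) bound by the MuvB complex and activated through CCAAT boxes bound by NF-Y. RefSeq windows of 300 bases, from 250 before to 50 after a gene's start, were at hand for 33 of the 41 kinesin genes. The letters TTTGAA (CHR), CCAAT, and the E2F words TTTCCCGC and TTTGGCGC were searched on both strands. No motif contains another, though CCAAT and TTTGAA can share an end base, and a gene with several windows was counted once. The CHR letters stood in 9 of 13 mitotic kinesins (69.2%), in 1 of 11 transport kinesins (KIF5B) and in 0 of 9 others, beside 18.2% of the 27305 genes in the table. CCAAT stood in 10 of 13, 4 of 11 and 3 of 9, beside 39.7% of all genes. Both stood in 8 of 13 mitotic kinesins and in 1 of 11 transport kinesins, beside 8.4% of all genes. An E2F word stood in KIF15 and in KIF25, beside 2.7% of all genes.

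The stretches of 4 mitotic kinesins are printed because they set genes that fell beside one that did not pass. Each is the 120 bases before the start, 5′ to 3′ on the gene's strand in GRCh38.p14, with CHR and CCAAT letters in capitals; a CCAAT on the other strand reads ATTGG.
KIF18A (chr11:28108157-28108276, minus strand): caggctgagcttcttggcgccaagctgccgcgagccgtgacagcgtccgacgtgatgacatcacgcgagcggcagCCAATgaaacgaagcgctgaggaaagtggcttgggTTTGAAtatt
KIF4A (chrX:70289984-70290103, plus strand): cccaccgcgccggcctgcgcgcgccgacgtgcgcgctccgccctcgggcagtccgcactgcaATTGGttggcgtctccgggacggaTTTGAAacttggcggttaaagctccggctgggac
KIF2C (chr1:44739717-44739836, plus strand): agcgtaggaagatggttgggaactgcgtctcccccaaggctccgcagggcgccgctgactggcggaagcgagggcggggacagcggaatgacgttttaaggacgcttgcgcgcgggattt
KIF23 (chr15:69414229-69414348, plus strand): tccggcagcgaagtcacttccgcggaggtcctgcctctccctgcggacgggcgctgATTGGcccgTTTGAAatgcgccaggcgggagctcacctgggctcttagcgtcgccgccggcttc
KIF18A and KIF4A, both lower in Hep3B, hold a CCAAT box upstream of a CHR. KIF23 holds the same pair and changed by 0.025. KIF2C, also lower, holds none of the searched letters in its window. A match is a description of letters and not of a bound site.

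**Figure D3:**
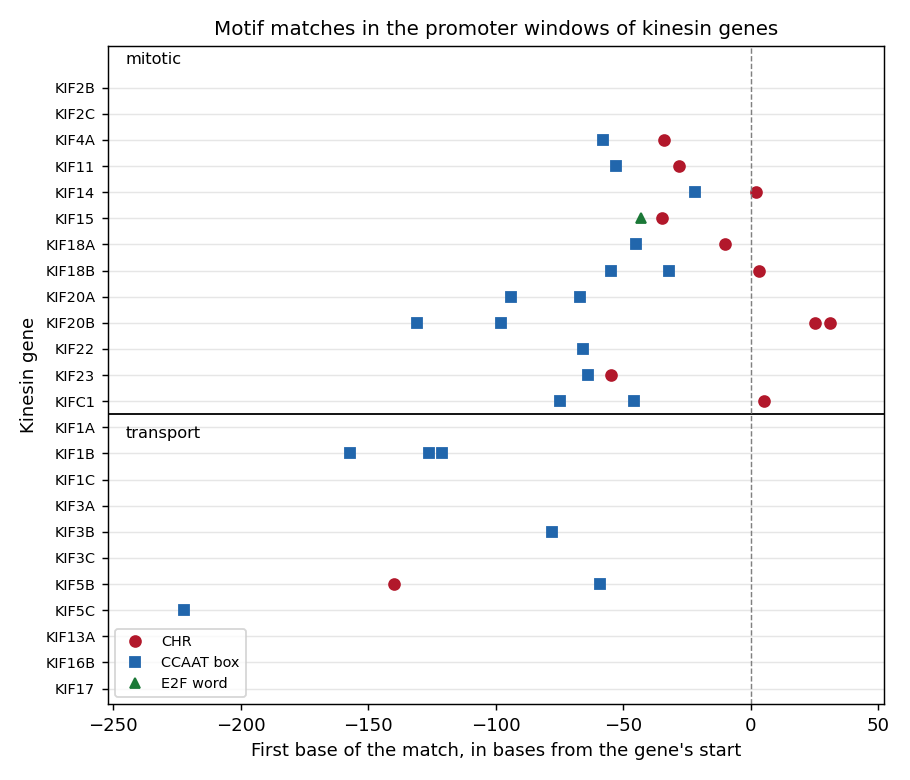
Each row is a mitotic or transport kinesin gene with a promoter window, and each symbol the first base of a motif match, placed in bases from the gene's start (dashed line). CHR matches lie between -55 and 31 bases from the start in 9 mitotic kinesins and at -140 in 1 transport kinesin, KIF5B.

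Among the transport kinesins, KIF16B, a kinesin-3 that moves early endosomes, rose most in Hep3B. It gave 7.99, 7.95 and 8.17 with ATAD2 siRNA, against 7.42, 7.50 and 7.61 in controls. The groups did not overlap, and the change was 0.53 ± 0.07 (adjusted p = 9.74e-05). A second, dimmer KIF16B probe set changed by 0.07 and did not pass, so that the probe sets of this gene disagree. KIF3B, a kinesin-2 motor of ciliary and vesicle transport, gave 9.21, 9.28 and 9.17 with ATAD2 siRNA, against 8.96, 8.95 and 8.86 in controls. All knockdown arrays were again above all controls, the change was 0.30 ± 0.06 (adjusted p = 0.00146), and the second KIF3B probe set also passed at 0.31.

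KIF3C, which pairs with KIF3A, was lower. It gave 8.08, 8.26 and 8.11 with ATAD2 siRNA, against 8.36, 8.31 and 8.41 in controls, a change of -0.21 ± 0.06 (adjusted p = 0.0336). The groups were separated by a narrow gap, and the call was lost with the values as deposited (-0.13, adjusted p = 0.232) and with centred arrays (-0.09, adjusted p = 0.441). KIF13B, KIFC2 and KIFC3 had unadjusted p-values under 0.05 with changes of 0.19, -0.14 and -0.31, none past the threshold after adjustment (adjusted p = 0.0558, 0.182 and 0.0776). KIF5B, the ubiquitous heavy chain of conventional kinesin, changed by -0.17 without passing. One further probe set each of KIF1B and KIF3A, not the brightest of their genes, passed at 0.47 and 0.48, while the brightest gave 0.024 and 0.094. The promoter stretches of the transport kinesins that rose, 120 bases each as above, show 1 CCAAT in KIF3B and none of the searched letters in KIF16B.
KIF16B (chr20:16573449-16573568, minus strand): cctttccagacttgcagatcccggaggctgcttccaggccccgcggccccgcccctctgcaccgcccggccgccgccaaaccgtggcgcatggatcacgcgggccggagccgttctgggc
KIF3B (chr20:32277531-32277650, plus strand): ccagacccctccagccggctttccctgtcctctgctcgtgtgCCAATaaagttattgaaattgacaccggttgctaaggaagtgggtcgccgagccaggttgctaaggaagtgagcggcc

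KIF21A, a kinesin-4 that slows microtubule growth at the cell cortex, was the only member of the other class to pass in Hep3B. It gave 8.85, 8.84 and 8.99 with ATAD2 siRNA, against 8.55, 8.49 and 8.48 in controls, a change of 0.39 ± 0.06 (adjusted p = 0.000227). The groups did not overlap, and a second probe set changed by 0.40 without passing. Its close relative KIF21B changed by -0.22 (adjusted p = 0.115). Over the whole family, knockdown and control arrays did not overlap for 17 of 41 genes in Hep3B, 6 higher and 11 lower, beside 32.8% of all genes.

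**Figure D4:**
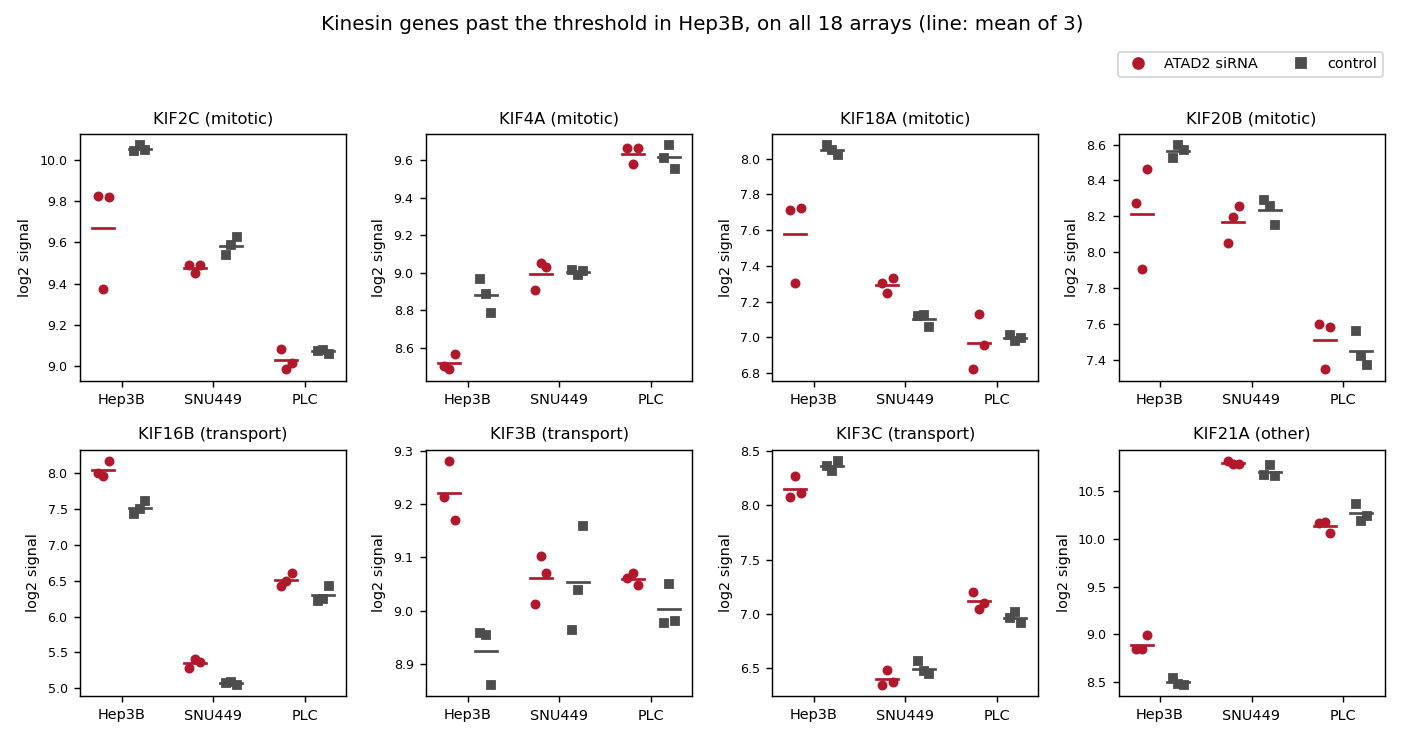
Log2 signal of the 8 kinesin genes past the threshold in Hep3B on all 18 arrays, by line, with ATAD2 siRNA (red circles) left of control (grey squares) and a line at each mean of 3; each panel has its own axis, which does not start at 0. The groups are apart in Hep3B in every panel, whereas in SNU449 and PLC most pairs of means lie close together and those of KIF16B are apart in all 3 lines.

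The partners of transport kinesins and the opposing motor, cytoplasmic dynein, were counted beside 16.4% of all genes called in Hep3B, or 26.0% of those not dim. Of 16 partners of transport kinesins, 14 were measured, 2 were higher and 2 lower (28.6%), with a median of 0.0059. TRAK2, a mitochondrial adaptor, and SPAG9 (JIP4), a kinesin and dynein adaptor, rose by 0.28 and 0.22 (adjusted p = 0.018 and 0.0278). KLC3, a kinesin light chain, fell by 0.35 and RHOT2 (Miro2), a mitochondrial GTPase, fell by 0.21 (adjusted p = 0.00989 and 0.00498). Of 20 genes of dynein and dynactin, 19 were measured, 5 were higher and 2 lower (36.8%), with a median of 0.12. NDEL1, a dynein regulator, rose by 0.34 and DYNLL2, a dynein light chain, fell by 0.65 (adjusted p = 0.000325 and 2.34e-06).

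In SNU449 no kinesin gene passed. The count was 0 of 41 by limma, beside 0.258% of all genes past the threshold. The median change was -0.020 over the mitotic and 0.028 over the transport kinesins, beside -0.016 over all genes. With the values as deposited and with centred arrays both medians were positive, at 0.053 and 0.092 for the mitotic and 0.081 and 0.12 for the transport kinesins. The median of all genes then also moved, to 0.0011 and 0.041. Relative to it the mitotic median was 0.051 and the transport median 0.080 under both, since centring only subtracts a constant from each array. KIF18A, the mitotic kinesin with the largest value, gave 7.30, 7.25 and 7.33 with ATAD2 siRNA, against 7.12, 7.12 and 7.06 in controls. Its groups did not overlap, with the knockdown arrays above the controls (0.19 ± 0.09), but the gene did not pass. KIF16B gave 5.28, 5.41 and 5.37 with ATAD2 siRNA, against 5.08, 5.09 and 5.05 in controls, a value of 0.28 with an adjusted p of 0.141. No gene of the partner, dynein, G1/S or G2/M lists passed in SNU449 either. The knockdown and control arrays did not overlap for 10 of 41 kinesin genes, beside 22.0% of all genes.

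In PLC 2 transport kinesins passed and no mitotic one did. This was 2 of 41, or 4.88%, both higher, beside 4.57% of all genes (2.34% higher and 2.24% lower). The median change was -0.011 over the mitotic and 0.065 over the transport kinesins, beside 0.012 over all genes. KIF3A, the partner of KIF3B and KIF3C in kinesin-2, gave 7.37, 7.35 and 7.44 with ATAD2 siRNA, against 7.10, 7.01 and 7.08 in controls. The groups did not overlap, and the change was 0.32 ± 0.08 (adjusted p = 0.0277). Its second probe set changed by -0.21 without passing, and the mean of both gave 0.05.

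KIF5B gave 10.80, 10.71 and 10.67 with ATAD2 siRNA, against 10.19, 10.25 and 10.68 in the PLC controls. Control replicate 3 lay among the knockdown arrays, so that the groups overlapped. The change was 0.36 ± 0.09 (adjusted p = 0.0415), and the other probe sets of KIF5B changed by -0.03 and -0.13. The call was lost in 15 of the 18 fits with 1 array left out. With the 5′ minus 3′ value as a covariate neither gene passed (adjusted p = 0.171 for KIF3A and 0.156 for KIF5B). The 5′ minus 3′ value, given above, was low on 2 of the 3 PLC knockdown arrays. Of the mitotic kinesins, KIF15, which keeps the spindle bipolar, gave 6.55, 6.93 and 6.72 with ATAD2 siRNA, against 6.90, 7.01 and 7.05 in controls, a value of -0.25 that did not pass (adjusted p = 0.206). Of the other lists, 1 dynein gene was higher (NDEL1, 0.23, adjusted p = 0.0309) and 2 G1/S genes were lower. The knockdown and control arrays did not overlap for 6 of 41 kinesin genes in PLC, beside 19.9% of all genes.

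Averaged over the 3 lines, 8 of 41 kinesin genes passed, or 19.5%, beside 13.0% of all genes. Of them 4 were higher and 4 lower, beside 6.80% and 6.24% of all genes. This average uses the same arrays as the comparisons within lines. KIF16B rose most, by 0.34 ± 0.04 (adjusted p = 6.32e-05), and its knockdown arrays lay above the controls in each line, at 0.53 in Hep3B, 0.28 for SNU449 and 0.22 for PLC. The PLC values were 6.43, 6.50 and 6.61 with ATAD2 siRNA, against 6.21, 6.25 and 6.42 in controls, which is a small gap. Its second probe set gave 0.08 on average and did not pass. KIF3A, KIF3B and KIF21A rose by 0.17, 0.12 and 0.12 on average (adjusted p = 0.0172, 0.0224 and 0.0337). The KIF21A average lost its call in 11 of the 18 fits with 1 array left out.

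KIF2C and KIF4A fell on average by 0.18 and 0.12 (adjusted p = 0.029 and 0.0335), and no mitotic kinesin was higher. KIF2C fell by 0.38 in Hep3B, with means of 9.48 and 9.58 in SNU449 and 9.03 and 9.07 in PLC (ATAD2 siRNA and control). Its average did not pass with centred arrays (-0.14, adjusted p = 0.0719) or in 5 of the 18 fits with 1 array left out. KIF4A gave -0.36 in Hep3B, -0.0065 in SNU449 and 0.021 in PLC, and its average did not pass with the values as deposited (-0.081, adjusted p = 0.179). KIF5C, a heavy chain of conventional kinesin best known from neurons, fell by 0.17 ± 0.04 (adjusted p = 0.00788), with -0.13 in Hep3B, -0.22 in SNU449 and -0.17 in PLC. The ATAD2 siRNA arrays of Hep3B gave 3.94, 4.01 and 4.12, against 4.0, 4.20 and 4.26 on its controls. Those of SNU449 gave 4.95, 4.87 and 4.99, against 5.14, 5.19 and 5.13 on its controls, and those of PLC gave 7.93, 8.0 and 8.03, against 8.12, 8.19 and 8.14 on its controls. The groups overlapped in Hep3B and were apart in SNU449 and PLC. KIF5C counted as not dim only through PLC, since its means in Hep3B and SNU449 lay under 6.06. On its other probe sets the average was -0.07 and 0.04. KIF19, a ciliary kinesin that was dim on every array, fell by 0.15 (adjusted p = 0.0226). The ATAD2 siRNA arrays of Hep3B gave 5.49, 5.59 and 5.49, against 5.52, 5.74 and 5.76 on its controls, and the groups overlapped. Those of SNU449 gave 5.26, 5.24 and 5.37, against 5.44, 5.49 and 5.45 on its controls, and those of PLC gave 5.45, 5.35 and 5.42, against 5.66, 5.54 and 5.43 on its controls. The mean of its probe sets gave -0.06 (adjusted p = 0.51). The median over the mitotic kinesins was -0.10, beside 0.011 over the transport kinesins and -0.011 over all genes.

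The response to ATAD2 siRNA differed between lines for 5 of 41 kinesin genes (F test over the interaction contrasts, limma), or 12.2%, beside 9.18% of all genes. They were KIF18A and KIF4A of the mitotic kinesins, KIF3C and KIF5B of the transport kinesins, and KIF21A. In the pairs of lines, 5 kinesins differed between PLC and Hep3B, 3 between SNU449 and Hep3B, and 0 between PLC and SNU449, beside 9.70%, 6.14% and 0.202% of all genes. Of all genes 4.76% changed upward and 4.94% downward in PLC relative to Hep3B, where 4 kinesins differed upward and 1 downward, and 2.93% and 3.21% in SNU449 relative to Hep3B, where 2 kinesins differed upward and 1 downward. The pairs share arrays and are not independent of each other.

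KIF18A changed by 0.19 in SNU449 and -0.027 in PLC, beside -0.47 in Hep3B. The difference from Hep3B was 0.66 ± 0.13 for SNU449 (adjusted p = 0.00561) and 0.44 ± 0.13 for PLC (adjusted p = 0.045). The KIF18A arrays of PLC gave 6.82, 7.13 and 6.96 with ATAD2 siRNA, against 7.01, 6.98 and 6.99 in controls, and overlapped. KIF4A changed by -0.0065 in SNU449 and 0.021 in PLC, beside -0.36 in Hep3B, with differences of 0.36 and 0.38 (adjusted p = 0.0173 and 0.00876). It gave 8.91, 9.05 and 9.03 with ATAD2 siRNA in SNU449, against 9.01, 8.99 and 9.01 in controls, and 9.66, 9.58 and 9.66 in PLC, against 9.61, 9.68 and 9.55 in controls. The PLC difference of KIF18A did not pass in 15 of the 18 fits with 1 array left out (0.30, adjusted p = 0.0586, without Hep3B knockdown replicate 2), and those of both genes did not pass with the values as deposited (0.30 and 0.25, adjusted p = 0.148 and 0.0869). KIF2C and KIF20B, which also fell in Hep3B, gave no difference between lines that passed.

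KIF21A moved in opposite directions, with -0.13 in PLC, where it did not pass, and 0.39 in Hep3B. Its PLC values were 10.17, 10.17 and 10.06 with ATAD2 siRNA, against 10.36, 10.19 and 10.24 in controls. The difference of -0.52 ± 0.09 had an adjusted p of 0.00125, the smallest of the family. Its second probe set differed by -0.13 and did not pass. KIF5B and KIF3C differed between PLC and Hep3B by 0.53 ± 0.13 and 0.36 ± 0.09 (adjusted p = 0.0195 and 0.0193). The other KIF5B probe sets gave 0.07 and -0.02 for this difference, while the second KIF3C probe set gave 0.41 and passed. KIF3C gave 7.20, 7.05 and 7.10 with ATAD2 siRNA in PLC, against 6.97, 7.01 and 6.92 in controls. KIF3B differed between SNU449 and Hep3B by -0.29 ± 0.08 (adjusted p = 0.0431), and this call was lost in 14 of the 18 fits with 1 array left out.

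On the control arrays, the lines differed in single kinesins by up to 4.0 log2 units, while the largest kinesin change called after ATAD2 siRNA was 0.53. The control arrays were compared with a threshold of adjusted p under 0.05 and at least 1 log2 unit. SNU449 and Hep3B differed in 9 of 41 kinesin genes, 4 higher and 5 lower in SNU449, or 22.0%, beside 19.7% of all genes (9.24% higher and 10.5% lower). PLC and Hep3B differed in 8, 3 higher and 5 lower in PLC, or 19.5%, beside 18.4% (9.58% higher and 8.83% lower). SNU449 and PLC differed in 7, 3 higher and 4 lower in SNU449, or 17.1%, beside 19.2% (8.63% higher and 10.5% lower). The 3 comparisons share control arrays.

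KIF5C had the widest range. Its control arrays gave 8.12, 8.19 and 8.14 in PLC, against 4.0, 4.20 and 4.26 in Hep3B and 5.14, 5.19 and 5.13 in SNU449. The difference of PLC from Hep3B was 4.0 ± 0.07 (adjusted p = 3.97e-18), and no value of PLC came near those of the other lines. Other KIF5C probe sets gave differences of 1.46 and 0.28, so that the size depends on the probe set. KIF21B, a kinesin-4 of neurons and immune cells, gave 7.79, 7.86 and 7.77 in SNU449, against 5.19, 5.43 and 5.32 in Hep3B and 6.02, 5.95 and 5.89 in PLC. It was thus high in SNU449, by 2.49 over Hep3B and 1.86 over PLC (adjusted p = 1.03e-13 and 7.11e-12). KIF21A was higher by 2.20 in SNU449 and by 1.76 in PLC, with 10.67, 10.77 and 10.66 in SNU449 and 10.36, 10.19 and 10.24 in PLC, against 8.55, 8.49 and 8.48 in Hep3B.

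KIF16B and KIF3C, which changed with ATAD2 siRNA in Hep3B, also had unequal levels. KIF16B control arrays gave 5.08, 5.09 and 5.05 in SNU449 and 6.21, 6.25 and 6.42 in PLC, against 7.42, 7.50 and 7.61 in Hep3B. The differences from Hep3B were -2.44 ± 0.07 for SNU449 and -1.22 ± 0.07 for PLC (adjusted p = 9.32e-15 and 1.62e-10). Its second probe set differed by -0.63 for SNU449 and 0.80 for PLC. KIF3C gave 6.57, 6.48 and 6.45 in SNU449 and 6.97, 7.01 and 6.92 in PLC, against 8.36, 8.31 and 8.41 in Hep3B. Its differences from Hep3B were -1.86 and -1.40. KIF3A gave 6.23, 6.17 and 6.0 in SNU449, against 7.61, 7.72 and 7.69 in Hep3B, a difference of -1.54. Neither gene's SNU449 values overlapped with those of Hep3B. KIF3B, the third kinesin-2 motor, gave 8.96, 9.04 and 9.16 in SNU449, against 8.96, 8.95 and 8.86 in Hep3B, and did not pass.

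Of the remaining kinesins, 2 were higher outside Hep3B. KIF13A, which carries cargo to recycling endosomes, gave 10.47, 10.37 and 10.42 in SNU449, against 8.86, 8.89 and 8.80 in Hep3B, a difference of 1.57. With the mean of its probe sets KIF13A differed by 0.87, under the threshold of 1. KIF1C, which moves Golgi vesicles, gave 8.18, 8.26 and 8.21 in PLC, against 7.01, 7.16 and 7.09 in Hep3B, a difference of 1.13. KIF1C fell under the threshold of 1 with the values as deposited (0.98), within lines (0.92) and with the mean of its probe sets (0.43). On the arrays given, neither gene's groups overlapped. KIF9, a motor of motile cilia, gave 6.59, 6.62 and 6.66 in SNU449. It gave 8.04, 8.07 and 8.04 in Hep3B and 8.39, 8.39 and 8.28 in PLC, differences of -1.42 and -1.73 for SNU449. With the mean of its probe sets these were -0.65 and -0.70, under the threshold, and 1 dim KIF9 probe set (mean signal 5.67) gave 0.63 and 1.11. KIF7, a ciliary kinesin of Hedgehog signalling, gave 6.11, 6.29 and 6.12 in SNU449, against 4.97, 4.98 and 5.02 in PLC. The difference of 1.18 came to just under 1 with centred arrays.

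**Figure D5:**
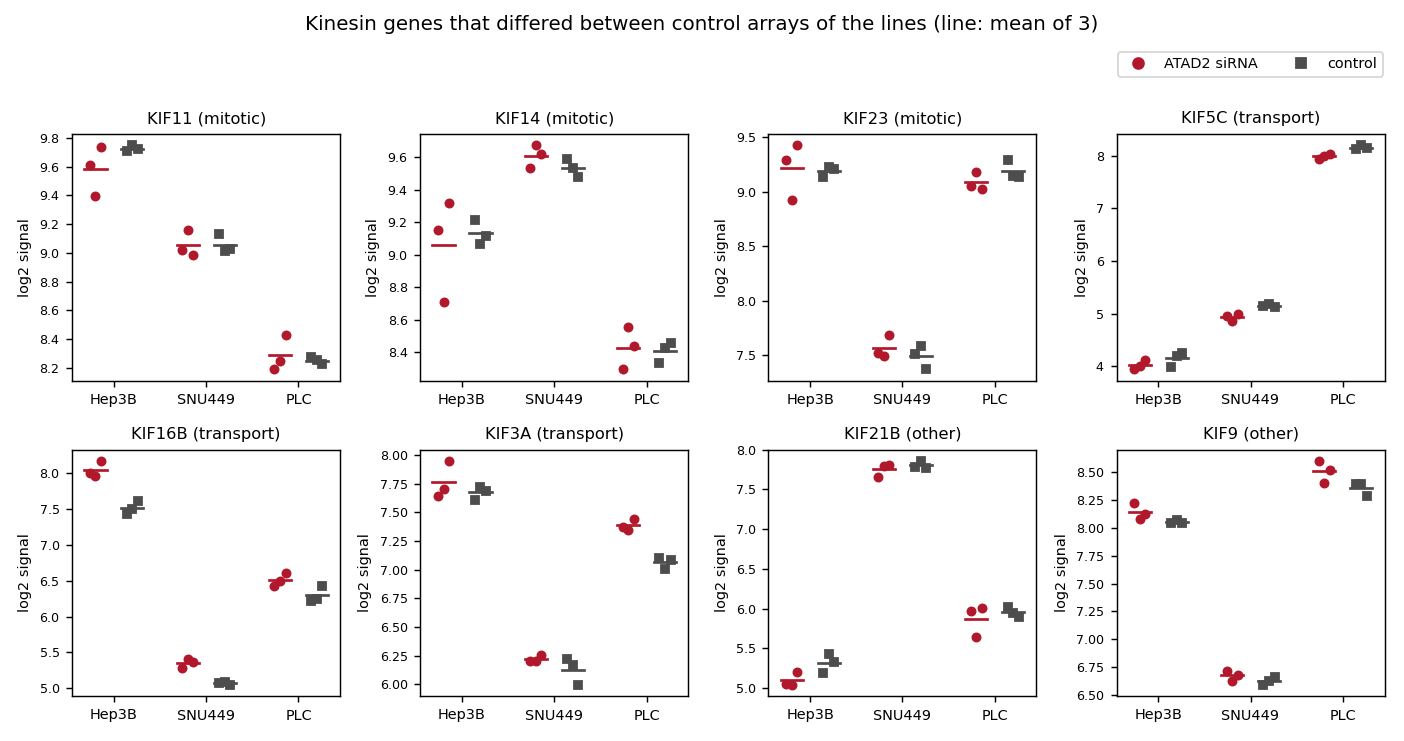
Log2 signal of 8 kinesin genes that differed between the control arrays of the lines, on all 18 arrays by line, with ATAD2 siRNA (red circles) left of control (grey squares) and a line at each mean of 3; each panel has its own axis, which does not start at 0. KIF23 and KIF9 are low in SNU449, KIF21B is high there, and KIF5C is high in PLC on knockdown and control arrays alike.

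Among the mitotic kinesins, KIF23 set SNU449 apart. It gave 7.51, 7.58 and 7.37 on the SNU449 control arrays, against 9.13, 9.23 and 9.21 in Hep3B and 9.29, 9.15 and 9.14 in PLC. The difference was -1.70 ± 0.10 against either line (adjusted p = 1.18e-10 and 1.26e-10). A second, dim KIF23 probe set differed by 0.10, and the mean of both probe sets by -0.80, under the threshold. KIF11 gave 8.27, 8.25 and 8.23 in PLC, against 9.71, 9.75 and 9.72 in Hep3B, a difference of -1.48 ± 0.08 (adjusted p = 3.8e-11). KIF20B gave 7.56, 7.42 and 7.37 in PLC, against 8.53, 8.60 and 8.57 in Hep3B (-1.12), and KIF18A gave 7.01, 6.98 and 6.99, against 8.07, 8.05 and 8.02 (-1.05). These 3 genes were thus low in PLC without overlap, although the mean of the KIF20B probe sets gave -0.76, under the threshold. KIF14, which acts in cytokinesis, gave 9.59, 9.53 and 9.48 in SNU449, against 8.33, 8.42 and 8.46 in PLC (1.13).

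Comparisons with PLC depended on the scaling. The deposited medians over all probe sets were 4.14 to 4.21 on PLC arrays, against 5.36 to 5.62 on the others. PLC was not lower by an even amount. The median over genes of PLC minus Hep3B was -0.62 as deposited but 0.63 with centred arrays, shifts of -0.60 and 0.65 from the main scaling. The kinesin calls were then 3 higher and 12 lower with the values as deposited, 3 and 13 with normalization within each line, and 13 and 0 with centred arrays. For SNU449 against PLC they were 12 higher and 3 lower, 14 and 3, and 1 and 18, with shifts of 0.75 (deposited and within lines) and -0.71 (centred). The share of all genes called under these other scalings was not counted. These counts are therefore not read as particular to kinesins. Relative to the median of all genes, the mitotic kinesins of PLC against Hep3B lay at -0.55 here, -0.11 as deposited and -0.15 within lines. The gap was thus much smaller without quantile normalization across lines. Centring subtracts a constant from each array, so its value of -0.11 repeats the deposited value and is no separate check. KIF14 changed sign with centred arrays, at -0.25 for SNU449 against PLC. KIF16B was no longer past the threshold for SNU449 against PLC with the values as deposited (-0.12) and within lines (-0.13). KIF11, KIF18A, KIF20B, KIF16B and KIF3C were no longer past the threshold for PLC against Hep3B with centred arrays (-0.22, -0.11, -0.032, -0.52 and -0.45). KIF5C and KIF21A stayed past it, higher in PLC, under all 3 other scalings. For SNU449 against Hep3B the split of kinesin calls was 4 and 5 by every scaling, with shifts of 0.17, 0.16 and -0.042 in the median of all genes (deposited, within lines and centred).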

How the data were processed

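The authors deposited 1 table of 54675 probe sets on 18 arrays, whose values are log2 signals as judged from their range of 1.33 to 14.0. How background was corrected and values were normalized is not given in the sources used here. The submitters' processing notes name limma, without a version. The sorted values of arrays lay within 0.155 of each other in a line but up to 1.51 apart across lines, and the arrays were therefore quantile normalized over all arrays. Gene symbols came from the platform annotation, updated by gene identifier from RefSeq (GRCh38.p14) for 41043 of 41097 probe sets with 1 gene. Each of the 19775 genes was represented by its brightest probe set.

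One limma model (version 3.58.1, R 4.3.3) held 6 group means, with lmFit, then eBayes; 12 degrees of freedom were residual and 4.01 prior. Benjamini-Hochberg adjustment of the two-sided p-values ran over all 19775 genes, with a threshold of 0.05, and control arrays also had to differ by 1 log2 unit. With 3 against 3 arrays an exact permutation test cannot go below 0.1. The number of arrays limits the precision. A simulation for 19775 genes changed 100 genes at each size, with independent normal noise of 1 spread per gene over all groups. Log2 changes of 0.5 and 1 were recovered at rates of 75% and 97% (Hep3B), 77% and 97% (SNU449) or 69% and 99% (PLC). Of the unchanged genes 18, 13 and 7 were called. The simulation held no array that stood apart and far fewer changed genes than the 3247 called in Hep3B, so its rates may not hold for these arrays.

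The members and lists were chosen with earlier results of these data known. By the rule for named genes, members past the threshold were given with their values on the arrays of that comparison, and the others by counts, ranges or their change. Of the other lists, genes past the threshold were given values. Promoter windows came from RefSeq (GRCh38.p14). Same-numbered arrays of a line correlated in their deviations at -0.13 to 0.093, so the replicate numbers were not taken as pairs. The alternatives tried were 3 other scalings, filters on dim genes, other uses of the probe sets, lines fitted separately, another prior, a replicate block, a threshold of 0.01, another placing of 3 members in the classes, each array left out, and a 5′ minus 3′ covariate.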

Additional observations from a re-analysis of the deposited data

Results flagged for a closer look

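The response of 5 kinesin genes to ATAD2 siRNA differed between the lines by the F test over the interaction contrasts (limma, adjusted over all genes). KIF21A had the smallest value (adjusted p = 0.00325), with changes of 0.39 in Hep3B, 0.095 in SNU449 and -0.13 in PLC. KIF18A (adjusted p = 0.0114) changed by -0.47, 0.19 and -0.027 in the same order of lines, and KIF4A (adjusted p = 0.0115) by -0.36, -0.0065 and 0.021. KIF3C (adjusted p = 0.0406) changed by -0.21, -0.094 and 0.15. KIF5B (adjusted p = 0.0445) changed by -0.17, 0.047 and 0.36, and its other probe sets did not repeat the PLC value. KIF3C and KIF5B lost the call with the values as deposited (adjusted p = 0.102 and 0.0937) and in 14 and 16 of the 18 fits with 1 array left out (adjusted p up to 0.102 and 0.107). KIF4A lost it with centred arrays and with the replicate block (adjusted p = 0.0558 and 0.0696), and KIF21A lost it with the mean of its probe sets (adjusted p = 0.0819).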

How the results depend on the processing

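Of 55 gene results followed through the alternatives, giving 1520 recomputed values, 1290 kept their direction and their side of the threshold, 229 lost the call and 1 reversed (KIF14, SNU449 minus PLC, -0.25 with centred arrays). The cause was not tested. Fits with 1 array left out gave 863 of the kept and 127 of the lost values. Leaving out an array outside a comparison does not change its difference. Only results past the threshold were followed, so the share kept is no measure of how firm they are. With the dimmest 50% of genes left out, so that fewer genes were tested, 13 kinesins passed in Hep3B and 1 in SNU449. This filter kept 12 mitotic, 11 transport and 4 other kinesins. The share of all kept genes that passed was not counted, so the rise is not read as particular to kinesins. In PLC 1 passed with the values as deposited and 1 with centred arrays, 4 probe sets with every probe set tested by itself, and 0 with the mean of a gene's probe sets, the lines fitted separately, the replicate block, the threshold of 0.01 or the 5′ minus 3′ covariate. For the mean of the lines 5 passed with the mean of probe sets, 5 with the replicate block and 2 at 0.01. For the difference in response 3 passed with centred arrays, 2 with the replicate block, 1 at 0.01 and 3 with the covariate. Under the replicate block, which rests on shared numbers only, 6 passed in Hep3B and 0 in SNU449. Between control arrays, 14 of the 85 kinesin probe sets passed for SNU449 minus Hep3B with every probe set by itself. For PLC minus Hep3B 15 probe sets passed, and for SNU449 minus PLC 18. These are counts of probe sets and are not comparable with the counts of genes. Counted by gene, PLC minus Hep3B gave 15 as deposited, 16 within lines, 13 centred and 5 with the mean of probe sets. SNU449 minus PLC gave 15, 17 and 19 genes under those 3 scalings. The share of all genes called was counted in the main setting only. The transport median in Hep3B was -0.024 with centred arrays and 0.024 without the dimmest 50%. In SNU449 the mitotic median was 0.053 as deposited and 0.092 centred, and the transport median 0.081 as deposited, 0.12 centred, 0.047 without the dimmest 50% and 0.039 over probe sets. In PLC the mitotic median was -0.073 centred, and the transport median 0.0051 as deposited, -0.018 centred, 0.027 over probe sets and 0.089 with the covariate. The median of all genes moved as well. As deposited it was -0.019 in Hep3B, 0.0011 in SNU449 and 0.008 in PLC, and centred it was 0.016, 0.041 and -0.016. With each array left out in turn, 6 to 9 kinesins passed in Hep3B, 0 to 4 in PLC, 4 to 9 for the mean of lines and 3 to 7 for the difference in response, and 0 in every such fit in SNU449. The medians then ran from -0.24 to -0.089 (mitotic) and -0.12 to -0.064 (transport) in Hep3B, from -0.054 to -0.0079 and 0.0086 to 0.033 in SNU449, and from -0.042 to 0.014 and 0.045 to 0.081 in PLC. The 11 dim kinesins limit what can be said of those genes.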
